A study of Homo sapiens with 18 samples.

Results

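The transcripts described here are those of ESR1, the gene of estrogen receptor alpha, and of 9 genes known to be regulated by estrogen in luminal breast cancer, namely PGR, GREB1, TFF1, TFF3, CA12, PDZK1, IGFBP4, NRIP1 and RARA. The rule that names the 10 genes uses no measured value, though it was written with earlier results of these data known. They are 10 of 58884 gene identifiers with counts in each library. Each was measured in all 18 libraries of the series, with 3 libraries for each of 6 groups, and all 10 had enough counts to be tested in every comparison.

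Estrogen receptor alpha is a ligand-activated transcription factor of the nuclear receptor family. With estradiol bound it forms dimers that attach to palindromic estrogen response elements, or reach DNA through other factors, and it recruits coactivators such as the NCOA proteins, CREBBP and EP300. Corepressors such as NRIP1 limit its activity with estradiol, and NCOR1 acts mainly when an antagonist is bound. In luminal breast cancer cells the receptor depends on FOXA1 and GATA3, which prepare its binding sites, and it drives genes for receptors, secreted factors and cell cycle regulators. The progesterone receptor PGR is the target used in the clinic as a sign of a working estrogen receptor.

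RNA was from T47D, an established luminal breast cancer line that carries estrogen and progesterone receptors. Cells with the genotype label WT (line label T47D AAV) and cells with the genotype label PARP1 KO (line label T47D JL) were each kept for 48 hours with niraparib at 10 μmol/L, olaparib at 10 μmol/L, or the solvent DMSO. Both drugs are inhibitors of the poly(ADP-ribose) polymerases PARP1 and PARP2. All groups grew in medium with fetal bovine serum, and neither labels nor methods speak of added or removed estrogen, so receptor activity was not set by the design. Each genotype is represented by 1 line. The methods speak of 3 culture dishes for each condition but do not say that each library came from its own dish, so P values measure the spread between these libraries, which may be technical.

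The DNA letters that the receptor reads are shown first, because they are a feature of the genes that was not used to choose them. The consensus estrogen response element GGTCANNNTGACC, 13 bases of which 10 are fixed, was searched on both strands within 5000 bases either side of the RefSeq start (GRCh38.p14) of each protein-coding gene with an entry. Other starts of a gene were not used. For ESR1 the start used was 151656672, at the outer end of the annotated gene, and it may not be the start in use in these cells. Of the 10 genes, GREB1, TFF1 and TFF3 had no entry and were not searched. Of the 7 with an entry, 1 (NRIP1) held the complete element and 4 (ESR1, CA12, IGFBP4 and NRIP1) held at least 1 match to 9 or more of the 10 fixed letters. Over all 15843 genes searched, 0.94% held the complete element and 23.42% a match of 9 or more. The matches are printed 5′ to 3′ on the strand of the gene, as 29 bases of GRCh38 in which capitals are the matched fixed letters. The NRIP1 and ESR1 matches and 1 of the CA12 matches lie in introns, 1 of the IGFBP4 matches lies in an exon, and the others lie upstream of the annotated gene.
NRIP1, chr21:15065633-15065661, minus strand, 289 bases after the start: gggcgtggGGTCAaagTGACCcagagttc
ESR1, chr6:151658257-151658285, plus strand, 1599 bases after the start: gagtttcaGGTtAgttTGACCttttccgt
CA12, chr15:63380689-63380717, minus strand, 1143 bases after the start: ctcttggaGGTCAcagTGcCCatggggaa
CA12, chr15:63384086-63384114, minus strand, before the start: tgggagaaGGTCAgagaGACCttgtttct
IGFBP4, chr17:40443724-40443752, plus strand, 288 bases after the start: cctcgggcGGTCAtgcTGcCCctctgcct
IGFBP4, chr17:40439327-40439355, plus strand, before the start: agaatccaGGTCAttgTGACactcacact

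**Figure D1:**
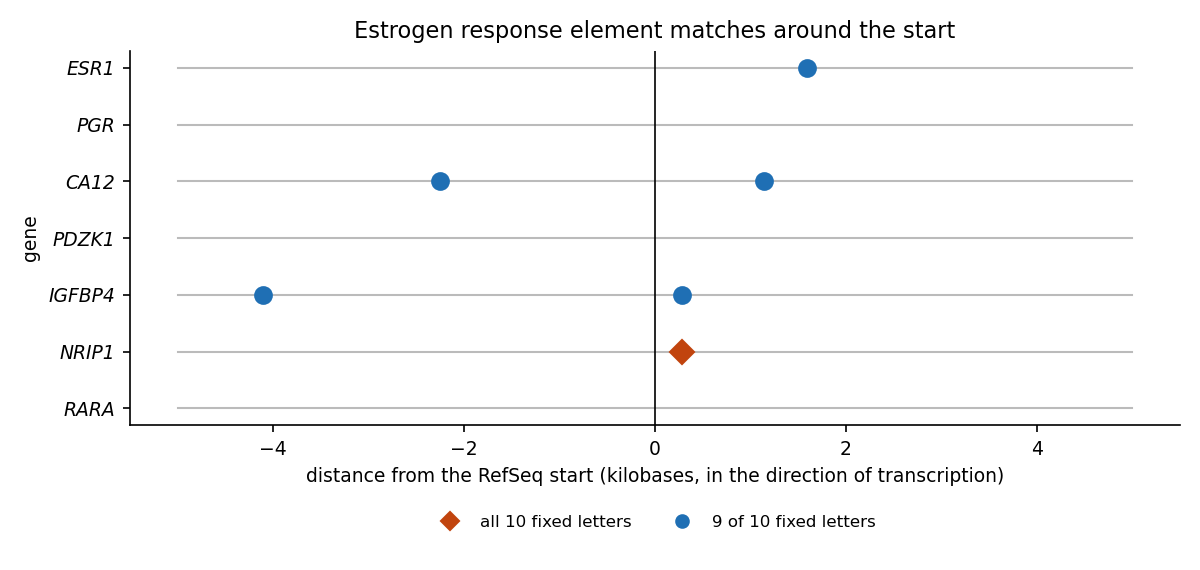
Matches to the estrogen response element around the RefSeq start of the 7 genes with an entry, plotted as distance from the start in kilobases along the direction of transcription. NRIP1 alone has a match of all 10 fixed letters (diamond), and ESR1, CA12 and IGFBP4 have matches of 9 letters (circles).

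A single arm of the element, TGACC on either strand, was found in the promoter (250 bases before to 50 bases after the start) of 4 of the 7 genes, namely PGR, CA12, PDZK1 and RARA, against 35.81% of all promoters searched. The GC box GGGCGG was found in 5 of the 7 (PGR, CA12, IGFBP4, NRIP1 and RARA), against 58.5% of all promoters. The last 120 bases before the start of RARA and of PDZK1 are printed because these genes moved in opposite directions with niraparib and both hold an arm there, marked in capitals. A match is a description of letters and not evidence of binding.
RARA, chr17:40309060-40309179, plus strand: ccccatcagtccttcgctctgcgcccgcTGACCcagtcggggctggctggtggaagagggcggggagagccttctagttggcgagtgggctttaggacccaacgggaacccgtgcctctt
PDZK1, chr1:145707401-145707520, minus strand: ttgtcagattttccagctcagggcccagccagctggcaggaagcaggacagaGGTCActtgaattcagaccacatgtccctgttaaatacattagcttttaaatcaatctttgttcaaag

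On GRCh38, as the count files give it, the 10 genes lie on 7 chromosomes. ESR1 runs from 151656691 to 152129619 on the plus strand of chromosome 6, PGR from 101029624 to 101130524 on the minus strand of chromosome 11, GREB1 from 11482341 to 11642788 on the plus strand of chromosome 2, CA12 from 63321378 to 63381846 on the minus strand of chromosome 15 and PDZK1 from 145670852 to 145708148 on the minus strand of chromosome 1. Chromosome 21 holds TFF1 (42362282 to 42366535), TFF3 (42311667 to 42315651) and NRIP1 (14961235 to 15065936), all on the minus strand, and chromosome 17 holds RARA (40309180 to 40357643) and IGFBP4 (40443450 to 40457725) on the plus strand. Another gene of the same strand overlaps 0.97% of the exon bases of ESR1 and 1.02% of those of NRIP1, where reads were not counted, and none of those of the other 8.

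The libraries held between 28890837 and 52251288 counted reads. Levels below are in CPM, the counts scaled to a common library size with TMM size factors over all 18 libraries. PARP1 itself was between 291 and 373 CPM in the WT libraries and between 22.9 and 27.6 CPM in the PARP1 KO libraries, so no library went against its genotype label. Over 13526 genes, WT DMSO replicate 1 (0.271), PARP1 KO niraparib replicate 3 (0.255), WT niraparib replicate 2 (0.251) and PARP1 KO olaparib replicate 1 (0.249) differed most from the mean of the other 2 libraries of their group, as a root mean square on the log2 scale, and the remaining 14 lay between 0.152 and 0.231. The 6 luminal markers (KRT8, KRT18, KRT19, EPCAM, CDH1 and MUC1) were present in every library, with EPCAM the lowest at 174 to 218 CPM. Of the 5 basal markers, KRT5 had at most 4 counts and KRT14 at most 6 in any library, KRT17 reached 2.94 CPM and TP63 reached 2.54 CPM, while ACTA2 lay between 35.8 and 49.2 CPM. Of the stromal, endothelial and immune markers, PECAM1, PTPRC and CD68 had at most 3, 6 and 4 counts, VWF at most 11, VIM and COL1A2 stayed under 1 CPM, and only COL1A1 was clearly present (88.3 to 153 CPM).

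Without drug, the 10 genes spanned a wide range. Per kilobase of exon, IGFBP4, which binds insulin-like growth factors outside the cell, stood highest in the WT DMSO libraries at 686 ± 19 CPM per kb (SD, n = 3). The membrane carbonic anhydrase CA12 followed at 143 ± 7.37, then PGR at 90.6 ± 6.83, the trefoil factor TFF3 at 77.0 ± 8.50, and GREB1, a cofactor of the receptor, at 46.8 ± 3.95. The retinoic acid receptor RARA had 29.8 ± 0.398, the scaffold protein gene PDZK1 23.4 ± 0.659, ESR1 12.1 ± 0.344, the trefoil factor TFF1 10.7 ± 0.905 and the corepressor NRIP1 7.83 ± 0.800 CPM per kb. No neighbours in this order had overlapping libraries in the WT DMSO group. In PARP1 KO cells with DMSO the order was the same except that TFF1 (12.8 ± 1.17 CPM per kb) and ESR1 (12.6 ± 0.151) overlapped. These levels divide by all annotated exon bases, which run from 492 for TFF1 to 15404 for PGR, and the transcript in use may be shorter.

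**Figure D2:**
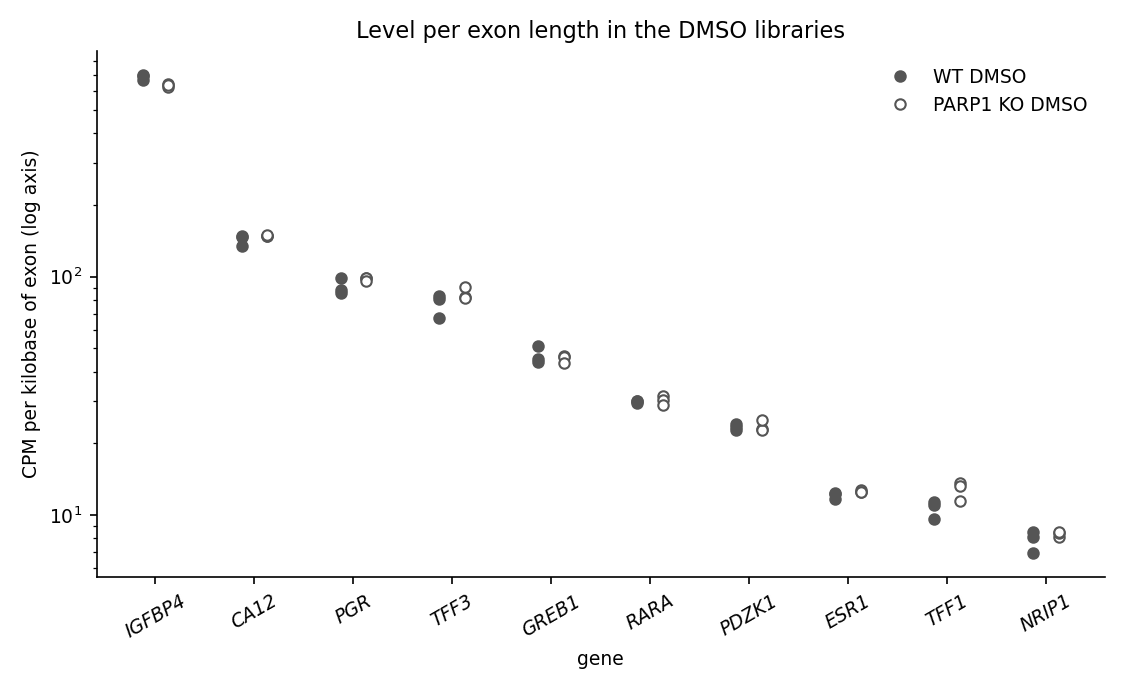
Level of each gene per kilobase of annotated exon, on a log axis, in the 3 WT DMSO libraries (filled circles) and the 3 PARP1 KO DMSO libraries (open circles), 1 point per library. IGFBP4 stands at 686 CPM per kb on average in WT and NRIP1 at 7.83.

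The genotype without drug made no difference that passed the test for any of the 10 genes. In PARP1 KO against WT with DMSO, 0 of 10 passed the adjusted P limit of 0.05 with edgeR and 0 with DESeq2, and 1 of 10 (IGFBP4, at −0.12 on the log2 scale) had an unadjusted P value below 0.05, as did 3354 of the 24675 genes tested. Over all genes tested, 1.39% passed the adjusted limit and 0.146% also changed more than 1.5-fold. The log2 differences of the 10 ran from −0.12 for IGFBP4 to 0.26 for TFF1, with a 95% interval of −0.038 to 0.56 for TFF1, the gene with the fewest reads (135 to 346 counts per library).

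ESR1 transcripts fell with either drug in WT cells. The WT DMSO libraries held 171, 162 and 169 CPM of ESR1, the WT niraparib libraries 116, 112 and 113 CPM, and the WT olaparib libraries 119, 125 and 123 CPM. Every treated library lay below every DMSO library. Niraparib shifted it by −0.56 ± 0.046 on the log2 scale (± standard error, edgeR adjusted P = 2.2e-09) and olaparib by −0.45 ± 0.046 (edgeR adjusted P = 4.2e-07), so both stayed short of a 1.5-fold change, which is 0.585 on the log2 scale. Between the drugs the difference was −0.11, with a 95% interval of −0.20 to −0.012 and an adjusted P value of 0.080 (edgeR). In these bulk samples, fewer cells of a kind and less RNA per cell cannot be told apart. PARP1 KO cells had ESR1 at 176, 173 and 173 CPM with DMSO, 160, 163 and 164 CPM with niraparib, and 139, 161 and 162 CPM with olaparib. The treated libraries again lay below the DMSO libraries, by less than in WT, with log2 fold changes of −0.097 for niraparib (adjusted P = 0.63, edgeR) and −0.18 for olaparib (adjusted P = 0.044, edgeR). Replicate 1 was the lowest of the 3 olaparib libraries in PARP1 KO cells, and without it the olaparib change no longer passed.

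PGR, the nuclear receptor for progesterone, had the largest change of the 10 against DMSO with either drug in WT cells. It was at 1516, 1320 and 1351 CPM in the WT DMSO libraries, at 776, 722 and 769 CPM with niraparib, and at 858, 943 and 922 CPM with olaparib. All 3 groups were separate from each other. The shift was −0.88 ± 0.057 on the log2 scale with niraparib (edgeR adjusted P = 4.8e-11), leaving 0.542 of the DMSO level, and −0.62 ± 0.056 with olaparib (edgeR adjusted P = 1.1e-07), leaving 0.652 of it. The 2 drugs differed by −0.27 (adjusted P = 7.1e-04, edgeR). PARP1 KO cells had PGR at 1526, 1526 and 1481 CPM with DMSO, at 1349, 1271 and 1393 CPM with niraparib and at 1213, 1511 and 1489 CPM with olaparib. The niraparib libraries lay below the DMSO libraries at a log2 fold change of −0.17 that did not pass (adjusted P = 0.44, edgeR), and the olaparib group overlapped DMSO with replicate 1 apart from the other two. PGR-AS1 shares 5.27% of the PGR exon bases on the opposite strand, and counting was strand-specific.

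RARA, the nuclear receptor for retinoic acid, moved the other way. The WT DMSO libraries were at 139, 143 and 142 CPM, the niraparib libraries at 227, 247 and 238 CPM and the olaparib libraries at 161, 147 and 159 CPM. Niraparib libraries stood far above both other groups, and olaparib libraries slightly above DMSO. The shift was 0.74 ± 0.048 on the log2 scale with niraparib (edgeR adjusted P = 5.3e-11), or 1.67-fold, and 0.14 ± 0.048 with olaparib (edgeR adjusted P = 0.049). The olaparib value missed the limit of 0.05 in 9 of 12 alternative fits, by most without WT olaparib replicate 1 (adjusted P = 0.23). In the PARP1 KO background neither drug passed for RARA (log2 fold changes of −0.056 and −0.11).

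The cofactor genes split. GREB1, which is itself induced by estrogen and binds the receptor, was at 638, 561 and 547 CPM in the WT DMSO libraries and at 471, 492 and 461 CPM with niraparib, a shift of −0.29 on the log2 scale (edgeR adjusted P = 1.3e-04). With olaparib it was at 549, 537 and 557 CPM, inside the range of DMSO apart from 1 library. NRIP1, a corepressor that the estrogen-bound receptor recruits, was at 59.0, 72.1 and 68.6 CPM with DMSO and at 82.5, 79.4 and 83.4 CPM with niraparib, a shift of 0.29 (edgeR adjusted P = 4.7e-04). Its olaparib libraries (64.3, 67.0 and 64.9 CPM) lay within the DMSO range. Replicate 1 of WT DMSO was the extreme DMSO library for both genes, and without it the niraparib changes were −0.22 for GREB1 and 0.21 for NRIP1, still with the same sign and past the adjusted P limit.

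The secreted products were lower with niraparib in WT cells. IGFBP4 fell from 1467, 1524 and 1549 CPM with DMSO to 1043, 882 and 1019 CPM with niraparib, which is −0.63 ± 0.057 on the log2 scale (edgeR adjusted P = 1.2e-08). With olaparib it was at 1530, 1538 and 1516 CPM, within the DMSO range. TFF3, which protects mucosal surfaces, fell from 78.6, 94.3 and 96.9 CPM to 63.3, 52.6 and 64.2 CPM, which is −0.59 ± 0.094 (edgeR adjusted P = 4.0e-04), while its olaparib libraries (85.4, 95.5 and 93.3 CPM) overlapped DMSO. TFF1, the classical estrogen-induced trefoil factor, was low in these cells, at 5.43, 5.56 and 4.74 CPM with DMSO and 4.31, 3.62 and 3.73 CPM with niraparib. Its shift of −0.44 (edgeR adjusted P = 0.013) had the widest 95% interval of the 10, from −0.72 to −0.16, and its adjusted P value was 0.064 without WT DMSO replicate 2. The olaparib libraries of TFF1, at 4.61, 5.17 and 4.29 CPM, overlapped both groups.

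CA12, which hydrates carbon dioxide at the cell surface, was at 945, 1026 and 1040 CPM with DMSO in WT cells, at 730, 619 and 731 CPM with niraparib and at 882, 931 and 907 CPM with olaparib. Its olaparib libraries were all below DMSO, by −0.14 on the log2 scale, but did not pass (adjusted P = 0.11, edgeR; 0.016 with no filter on low counts, 0.0497 in 1 fit of all 18 libraries and 0.031 without WT DMSO replicate 1), whereas the niraparib change of −0.53 did (adjusted P = 3.6e-07). PDZK1, a scaffold for membrane transporters, was at 56.3, 58.0 and 59.5 CPM with DMSO, at 37.8, 35.2 and 38.0 CPM with niraparib and at 61.2, 57.5 and 59.8 CPM with olaparib. The niraparib libraries of PDZK1 were clear of both other groups, at −0.65 ± 0.054 on the log2 scale (edgeR adjusted P = 3.0e-09). Reads of PDZK1 could also come from its transcribed pseudogene PDZK1P1, so its counts are less certain.

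**Figure D3:**
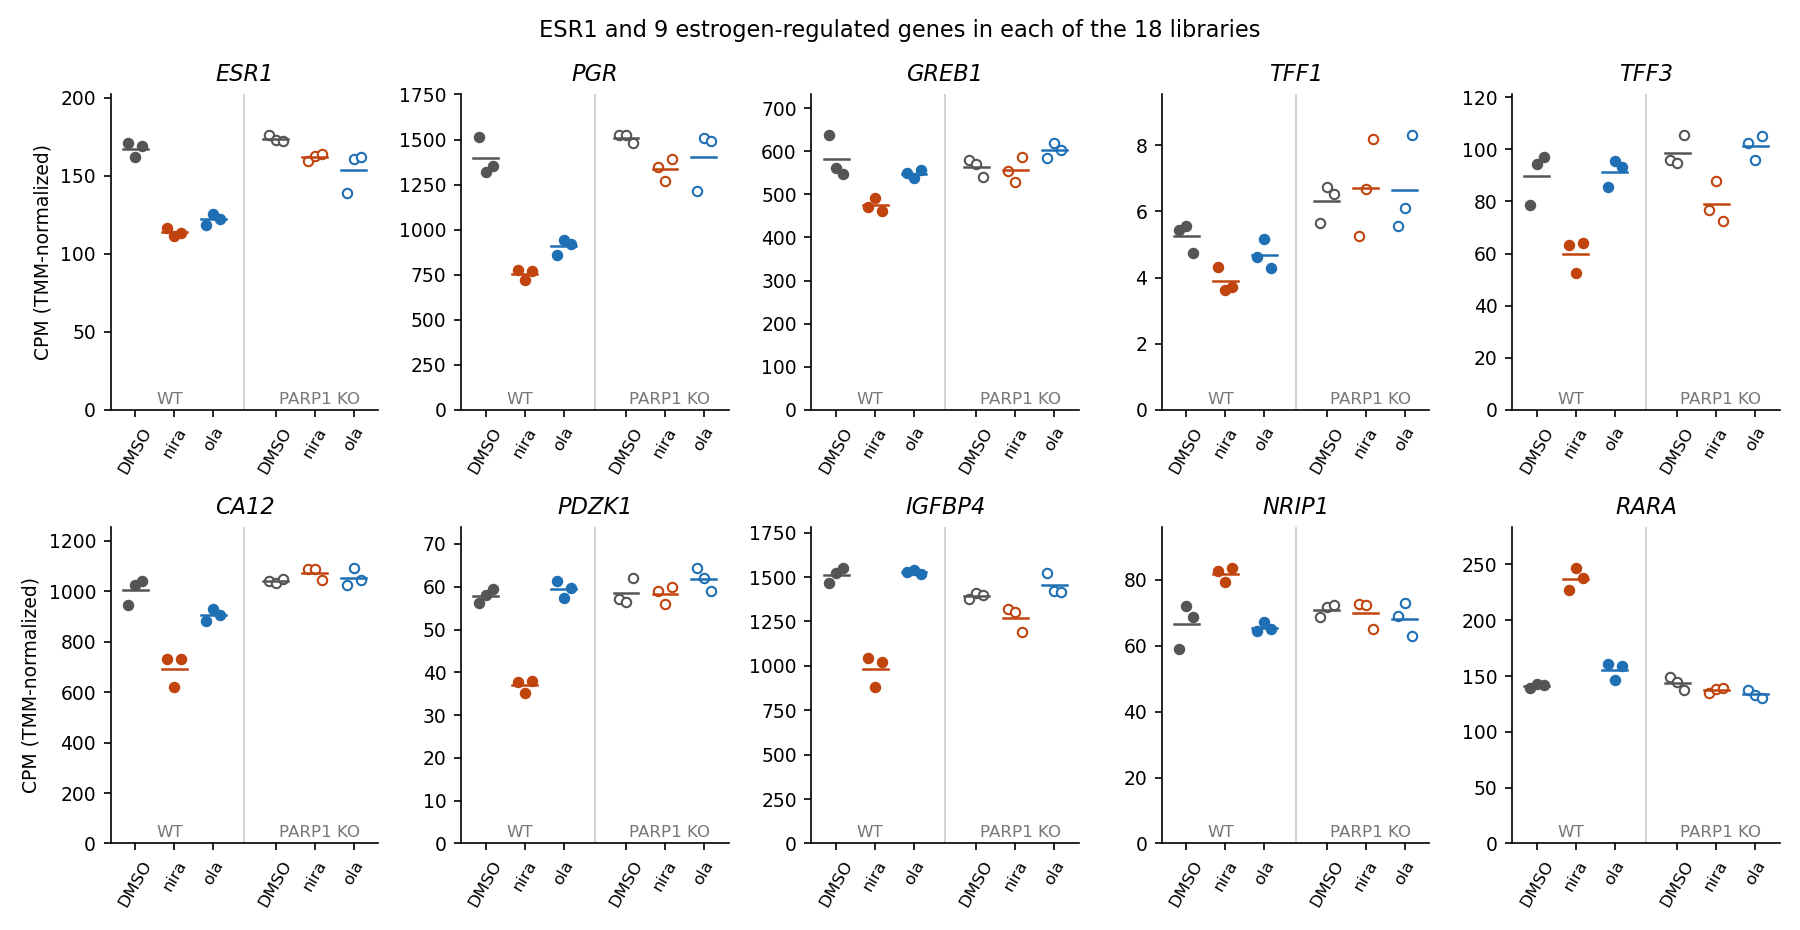
TMM-normalized CPM of ESR1 and the 9 estrogen-regulated genes in each library, by genotype and treatment (nira, niraparib; ola, olaparib). Points are libraries (filled for WT, open for PARP1 KO) and bars are means of 3. In WT cells PGR falls from 1320–1516 CPM with DMSO to 722–776 CPM with niraparib, and RARA rises from 139–143 to 227–247 CPM. In PARP1 KO cells PGR is at 1481–1526 CPM with DMSO and 1271–1393 CPM with niraparib, and RARA stays between 130 and 150 CPM.

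Counted together, all 10 genes passed the adjusted P limit with niraparib in WT cells, 8 lower and 2 higher, and in all 10 the niraparib and DMSO libraries did not overlap. This has to be read against a background of 38.0% of the 22446 genes tested that passed it and 46.7% with groups that did not overlap. With a change of more than 1.5-fold as well, 5 of 10 passed (PGR, TFF3, PDZK1 and IGFBP4 lower and RARA higher), against 13.8% of all genes. The median log2 fold change of the 10 was −0.55, against −0.025 over all genes tested. TFF3 lay just inside the 1.5-fold limit and ESR1 and CA12 just outside it. Without WT niraparib replicate 2, in which IGFBP4, TFF3 and CA12 were at their lowest, the count of 5 dropped to 3. Without it or without WT DMSO replicate 1, 2 of the libraries that stood apart, all 10 still passed the adjusted P limit, and without the latter the count of 5 was unchanged.

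With olaparib in WT cells, ESR1 and PGR were lower, RARA was slightly higher, and the other 7 genes did not pass. The 3 of 10 that passed the adjusted P limit compare with 19% of all genes, and the 1 of 10 that also exceeded 1.5-fold (PGR) with 4.04%. PGR fell just under the 1.5-fold limit without WT olaparib replicate 1, and also without WT DMSO replicate 1. The median of the 10 was −0.055, against −0.017 over all genes. For the genes that did not pass, the 95% intervals bound the change. They ran from −0.18 to 0.23 for TFF3, from −0.070 to 0.15 for PDZK1, from −0.10 to 0.14 for IGFBP4 and from −0.15 to 0.10 for NRIP1 on the log2 scale, so a 1.5-fold change of these genes lies outside the intervals.

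Set directly against each other in WT cells at the same dose and time, niraparib and olaparib differed for 8 of the 10 genes (adjusted P limit, against 32.2% of all genes). IGFBP4 (−0.64), PDZK1 (−0.69) and TFF3 (−0.61) were lower and RARA (0.61) was higher with niraparib by more than 1.5-fold, 4 of 10 against a background of 8.95%. The count of 4 became 1 without WT niraparib replicate 2 and 2 without WT olaparib replicate 2. CA12 (−0.39), PGR (−0.27), GREB1 (−0.21) and NRIP1 (0.32) also differed by a smaller step. The 2 genes that did not pass were ESR1 and TFF1 (−0.28 for TFF1, 95% interval −0.57 to 0.0050, adjusted P = 0.13, edgeR). Comparisons of the 2 drugs with DMSO share the DMSO libraries, so an extreme DMSO library moves both.

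**Figure D4:**
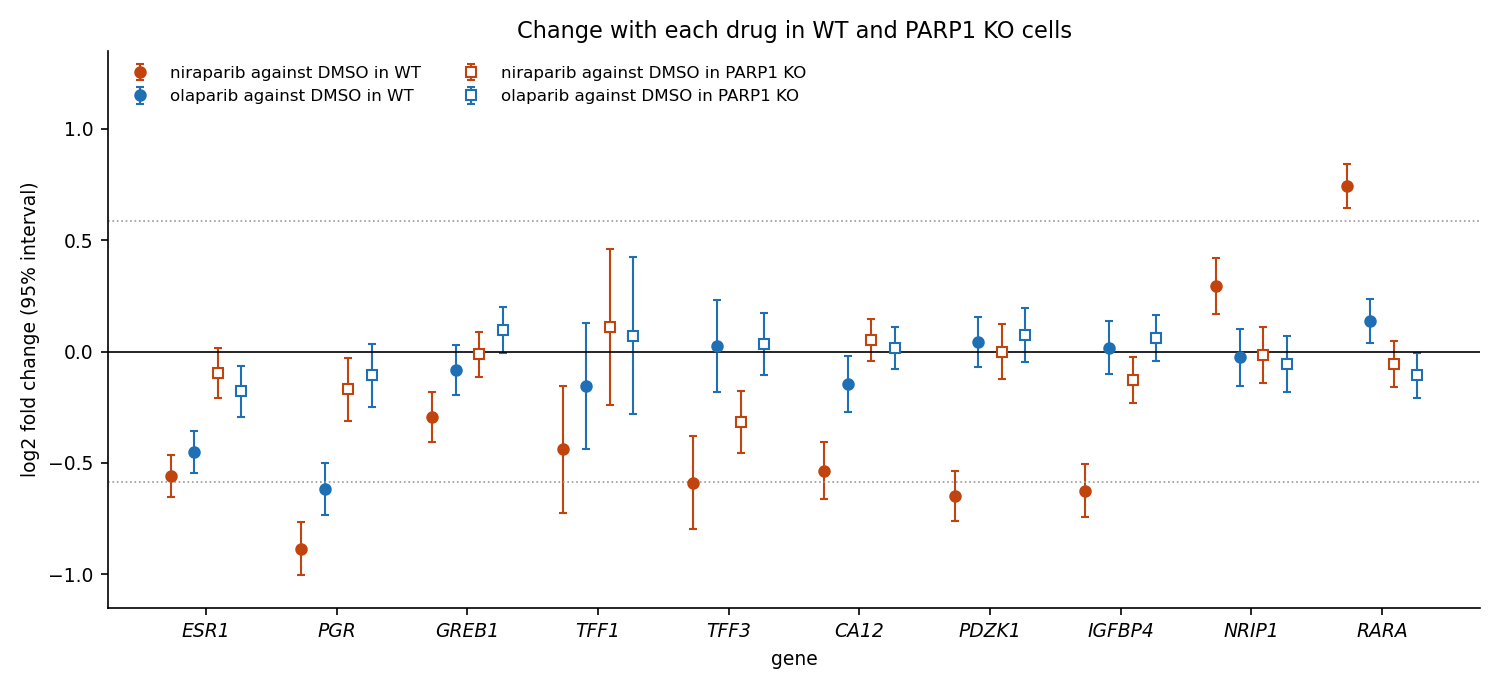
Log2 fold change of each gene against DMSO of the same genotype, with its 95% interval, for niraparib (red) and olaparib (blue) in WT (filled circles) and PARP1 KO cells (open squares). Dotted lines are a 1.5-fold change. With niraparib in WT, 8 genes lie below 0 and NRIP1 and RARA above it, and in PARP1 KO cells every value lies between −0.31 and 0.11.

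In PARP1 KO cells niraparib changed none of the 10 genes past the test. With edgeR 0 of 10 passed the adjusted P limit, against 0.109% of the 22037 genes tested, and 0 of 10 passed with 1.5-fold as well, against 0.0136%. The count at an unadjusted P value below 0.05 was 3 of 10 (PGR, TFF3 and IGFBP4), against 2014 of the 22037 genes, and DESeq2 found 1 below 0.05 after adjustment (TFF3). TFF3 was at 95.8, 94.7 and 106 CPM with DMSO and at 76.9, 87.8 and 72.6 CPM with niraparib, a shift of −0.31 (95% interval −0.45 to −0.18, edgeR adjusted P = 0.066), and its groups did not overlap. IGFBP4 was at 1374, 1409 and 1397 CPM with DMSO and at 1321, 1302 and 1192 CPM with niraparib, also without overlap (−0.13, adjusted P = 0.44, edgeR). With ESR1 and PGR, 4 of 10 genes had niraparib libraries wholly below DMSO, where groups did not overlap for 15.6% of all genes in this comparison. PDZK1 (−0.00053), GREB1 (−0.013) and NRIP1 (−0.015) stayed nearest to 0.

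In the remaining 6 genes the niraparib and DMSO libraries of PARP1 KO cells overlapped. PDZK1 was at 57.2, 56.3 and 62.1 CPM with DMSO, at 59.1, 56.0 and 59.9 CPM with niraparib and at 64.3, 62.0 and 58.9 CPM with olaparib, where the WT niraparib libraries had been at 35.2 to 38.0 CPM. CA12 was at 1040, 1033 and 1048 CPM with DMSO, at 1089, 1087 and 1043 CPM with niraparib and at 1026, 1091 and 1043 CPM with olaparib. Groups of both genes overlapped. GREB1 was at 580, 570 and 540 CPM with DMSO, at 554, 528 and 586 CPM with niraparib and at 584, 619 and 604 CPM with olaparib, the last group above DMSO in every library by 0.096 on the log2 scale without passing (edgeR adjusted P = 0.28). NRIP1 lay between 62.8 and 72.8 CPM and RARA between 130 and 150 CPM over the 9 libraries. TFF1 was at 5.64, 6.72 and 6.53 CPM with DMSO, at 5.26, 6.68 and 8.19 CPM with niraparib and at 5.56, 6.10 and 8.31 CPM with olaparib, so each drug group had 1 library above the DMSO range and 1 below it. The 95% intervals of the niraparib change excluded a 1.5-fold change for all 10 genes, the widest being −0.24 to 0.46 for TFF1.

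Olaparib in PARP1 KO cells gave 1 of 10 genes below the adjusted P limit, ESR1, against 8.29% of all genes, and 0 of 10 with 1.5-fold as well, against 0.803% (edgeR, with 2 of 10 and 4640 of all 22037 genes below an unadjusted P value of 0.05, and 0 past both criteria with DESeq2). The call of ESR1 was lost when PARP1 KO olaparib replicate 1 or 2 or any 1 of the 3 PARP1 KO DMSO libraries was left out. Between niraparib and olaparib in these cells, TFF3 (−0.35, adjusted P = 0.0019) and IGFBP4 (−0.19, adjusted P = 0.018) were lower with niraparib in edgeR, 2 of 10 against 10.0% of all genes, and 0 of 10 exceeded 1.5-fold, against 1.07% (0 past both criteria with DESeq2, and 3 of 10 against 4877 of the 22037 below an unadjusted P value of 0.05). The IGFBP4 difference no longer passed without PARP1 KO olaparib replicate 1 (adjusted P = 0.077) or niraparib replicate 3 (adjusted P = 0.081). TFF3 and IGFBP4 were also lower with niraparib than with olaparib in WT cells.

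The interaction of genotype and drug asks whether the change in PARP1 KO cells differs from the change in WT cells. A positive value means that the change was more positive in PARP1 KO cells. For niraparib it passed for 8 of the 10 genes (adjusted P below 0.05, against 22.9% of the 24675 genes tested), and for 3 of 10 at more than 1.5-fold (PGR and PDZK1 higher and RARA lower, against 8.88%). PGR differed by 0.71 (standard error 0.093, adjusted P = 1.7e-06), PDZK1 by 0.64 (standard error 0.079, adjusted P = 7.1e-08) and RARA by −0.81 (standard error 0.068, adjusted P = 2.3e-11, edgeR). CA12 (0.58), IGFBP4 (0.49), ESR1 (0.46), GREB1 (0.28) and NRIP1 (−0.31) passed with smaller differences. The trefoil factors did not pass, at 0.54 for TFF1 (95% interval 0.11 to 0.97, adjusted P = 0.061) and 0.27 for TFF3 (−0.0026 to 0.54, adjusted P = 0.16, edgeR), though TFF1 passed without PARP1 KO niraparib replicate 1 or WT DMSO replicate 3 and TFF3 without WT DMSO replicate 1. With no filter on low counts both passed (edgeR adjusted P = 0.034 for TFF1 and 0.0068 for TFF3). For olaparib the interaction passed for 2 of 10, PGR at 0.52 (adjusted P = 0.0025) and ESR1 at 0.28 (adjusted P = 0.029, edgeR), against 2.27% of all genes. ESR1 missed the limit in 8 of the 17 alternative fits, each of them without 1 library, most clearly without PARP1 KO olaparib replicate 2 (adjusted P = 0.11). RARA was at −0.24 (edgeR adjusted P = 0.053), the other nearest to the limit, and it passed in 6 of the 17 alternative fits (adjusted P = 0.012 with DESeq2). None of the 10 passed with 1.5-fold as well, against 0.657% (also 0 past both criteria with DESeq2, and 5 of 10 against 3877 of the 24675 below an unadjusted P value of 0.05). Genotype and line cannot be told apart here, since each genotype is 1 line.

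Replicates of the 10 genes were close together. The coefficient of variation within a group had a median over the 6 groups from 2.40% for ESR1 to 9.58% for TFF1. The largest single value was 21.9% for TFF1 in the PARP1 KO olaparib group, where PGR also had its largest, 11.8%.

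Transcripts of the other estrogen receptors were near the detection limit. ESR2, the gene of estrogen receptor beta, stayed between 0.18 and 0.70 CPM (7 to 27 counts) and the membrane estrogen receptor GPER1 between 0.031 and 0.58 CPM, and neither passed in any comparison. Of the 6 receptors listed, 2 rose and 2 fell with niraparib in WT cells past the adjusted P limit (38.0% of all genes did), and 0 passed in PARP1 KO cells with niraparib (0.109% of all genes).

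Factors that open chromatin for the receptor or act beside it moved in WT cells in both directions. GATA3, which marks luminal cells and is needed for ESR1 expression, went from 1165, 1079 and 1072 CPM with DMSO to 659, 643 and 683 CPM with niraparib and 894, 907 and 917 CPM with olaparib, with no overlap between groups. Its log2 fold changes were −0.74 (adjusted P = 6.0e-11) and −0.28 (adjusted P = 2.0e-04, edgeR). FOXA1, the pioneer factor of the receptor, fell by 0.34 and 0.24, and XBP1, a stress response factor induced by estrogen, fell by 0.49 and 0.42 on the log2 scale in the same order. TFAP2C rose by 0.29 and TLE3 by 0.23 with niraparib. All 5 of these factors passed with niraparib in WT cells, 3 lower and 2 higher, with a median of −0.34, against 38.0% of all genes. In PARP1 KO cells 0 of 5 passed with niraparib, against 0.109%, and 2 of 5 were lower with olaparib, against 8.29%. In the niraparib interaction all 5 passed, against 22.9%, led by GATA3 at 0.71.

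Among 10 coactivator and corepressor genes, 5 rose with niraparib in WT cells and 0 fell (adjusted P below 0.05), a share near the 38.0% of all genes that passed. CREBBP, an acetyltransferase, rose from 135, 119 and 119 CPM to 242, 275 and 234 CPM, which is 1.01 on the log2 scale (edgeR adjusted P = 6.1e-11), with no overlap. The other 4, among them PELP1 (0.51), MED1 (0.49) and EP300 (0.39), stayed under 1.5-fold. The 3 that passed with olaparib, against 19% of all genes, included CREBBP (0.27) and PELP1 (0.19). Among PARP1 KO libraries 0 of 10 passed with niraparib and only NCOA3 (0.26) with olaparib, against 0.109% and 8.29% of all genes.

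Of 7 enzymes that make or inactivate estrogens, 5 had enough counts to be tested in WT cells. CYP19A1, the aromatase that forms estrogens, had at most 1 count in any library and SULT1E1 had 0 in all 18 libraries, so both were at the detection limit. HSD17B4, which oxidises estradiol, was lower with niraparib in WT cells, by 0.19 on the log2 scale.

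A wider list of 40 other genes known to be induced by estrogen did not move as a block. With niraparib in WT cells 12 were higher and 14 lower past the adjusted P limit, with a median of −0.078 against −0.025 over all genes, and 5 were higher and 3 lower by more than 1.5-fold as well. Over all genes 38.0% passed the adjusted P limit and 13.8% both criteria. CCND1, the G1 cyclin, fell from 396, 375 and 380 CPM with DMSO to 190, 163 and 199 CPM (−1.06 on the log2 scale, edgeR adjusted P = 1.9e-11), and the secreted glycoprotein gene STC2 from 2440, 2327 and 2282 CPM to 1062, 1008 and 1055 CPM (−1.17, adjusted P = 1.1e-13). FKBP4, a cochaperone of steroid receptors, fell by 0.65. In the opposite direction AREG, a ligand of the epidermal growth factor receptor, rose from 55.3, 57.7 and 54.3 CPM to 184, 211 and 203 CPM (1.84, adjusted P = 2.9e-16), and the small heat shock protein gene HSPB8 (0.88) and CCN5 (0.83) rose as well. None of the libraries of CCND1, STC2 or AREG overlapped between niraparib and DMSO.

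Olaparib in WT cells lowered CCND1 to 222, 233 and 218 CPM (−0.77) and STC2 to 1442, 1574 and 1471 CPM (−0.65) and raised AREG to 116, 125 and 122 CPM (1.12), between DMSO and niraparib each time. Of the 40 genes 6 were higher and 10 lower past the adjusted P limit, 1 and 5 of them by more than 1.5-fold, with KRT13 the lowest at −0.90. Over all genes 19% passed the adjusted P limit and 4.04% both criteria. Between the drugs AREG (0.72), CCN5 (0.93) and EGR3 (0.86) were higher and MYB (−0.61) was lower with niraparib, among 6 higher and 1 lower past both criteria, against 8.95% of all genes. Of the 40 genes in PARP1 KO cells, 0 passed with niraparib, against 0.109% of all genes (edgeR, 7 below an unadjusted P value of 0.05, against 2014 of the 22037), and with olaparib 4 were higher and 8 lower, against 8.29% of all genes, 1 of them (BCL2, −0.59) by more than 1.5-fold. AREG (0.37) and CCND1 (−0.40) were among the 12 and kept the signs they had in WT cells. The niraparib interaction passed for 20 of the 40, 11 higher and 9 lower, against 22.9% of all genes, with AREG at −1.67, CCND1 at 0.98 and STC2 at 1.0. In the olaparib interaction 4 of the 40 passed the adjusted P limit, against 2.27% of all genes, and of these only AREG (−0.75) also exceeded 1.5-fold.

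**Figure D5:**
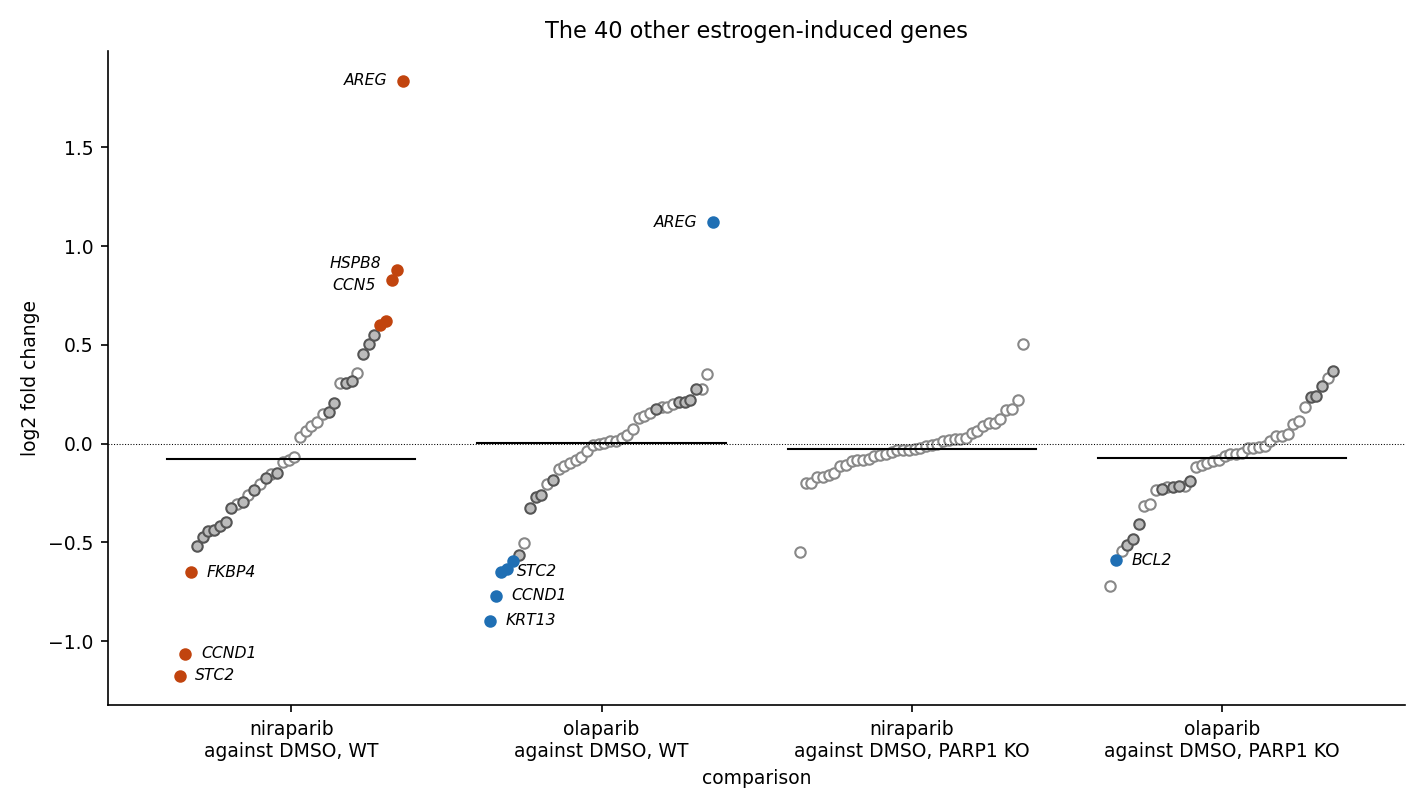
Log2 fold changes of the 40 other estrogen-induced genes in 4 comparisons with DMSO, each sorted from lowest to highest. Coloured points passed an adjusted P value of 0.05 and 1.5-fold (up to 3 in each direction are named), grey points the adjusted P value alone, open points neither, and horizontal bars are medians. AREG at 1.84 and STC2 at −1.17 mark the ends with niraparib in WT.

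Markers of cell identity and of division moved in the same WT libraries, and their part in the changes above was not tested. The summed level of the 6 luminal markers was 10289 to 11179 CPM with DMSO in WT, 7982 to 8903 CPM with niraparib and 8564 to 8903 CPM with olaparib, and 4 of 6 were lower with either drug (KRT8, KRT18, KRT19 and MUC1, the last at −0.77 with niraparib), where 38.0% of all genes passed with niraparib and 19% with olaparib. In PARP1 KO the luminal sum was 11873 to 12446 CPM with DMSO, 11030 to 11256 CPM with niraparib and 10105 to 10713 CPM with olaparib. The 5 basal markers summed to 42.2 to 44.1 CPM with DMSO, 50.9 to 53.6 CPM with niraparib and 48.5 to 50.5 CPM with olaparib in WT, mostly ACTA2. All 3 that could be tested were higher with niraparib in WT, against 38.0% of all genes that passed in either direction, ACTA2 by 0.19, TP63 by 0.78 and KRT17 by 4.27 on the log2 scale (edgeR adjusted P = 0.0066, 0.0031 and 3.2e-08), the last from only 1, 9 and 6 counts with DMSO to 70, 163 and 106 counts (95% interval 3.42 to 5.12). The 10 division genes summed to 3194 to 3553 CPM with DMSO in WT, 1584 to 1672 CPM with niraparib and 2917 to 2951 CPM with olaparib, and to 2872 to 3240 CPM with niraparib in PARP1 KO against 3298 to 3400 CPM with DMSO. With niraparib in WT 7 of the 10 fell by more than 1.5-fold, against 13.8% of all genes that changed so in either direction, led by PLK1 (−2.46) and CCNB1 (−2.19). MCM2 (0.48) and RRM2 (0.46) rose.

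Over the 18 libraries, the genes most like ESR1 in log2 CPM included STC1 (Pearson r = 0.983), CCND1 (0.982), PGR (0.976) and TRIM25 (0.971), out of 11019 genes that averaged 5 CPM or more. Those most like PGR included TOP2B (0.987), STC1 (0.984), STC2 (0.983) and ZNF710-AS1 (0.978). These values describe points that fall into 6 groups and share the difference between WT libraries with and without drug. Taken about the group means, ESR1 and PGR had r = 0.879, with PARP1 KO olaparib replicate 1 low for both, whereas GREB1 and TFF3 had −0.878 within groups against 0.610 over all libraries. WT DMSO replicate 1, WT niraparib replicate 2 and PARP1 KO niraparib replicate 3 were the highest of their groups for GREB1 and the lowest for TFF3. These libraries were also among those that stood apart over all genes. CA12 and RARA, which moved in opposite directions, had r = −0.958 over the 18 libraries.

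By position, RARA and IGFBP4 are neighbours on chromosome 17 with 85806 bases and 8 annotated genes between them, among them TOP2A. RARA rose and IGFBP4 and TOP2A (−1.44) fell with niraparib in WT cells, so the direction was not shared across this stretch. TFF3 and TFF1 lie 46630 bases apart on chromosome 21 with TFF2 between them, and both were lower with niraparib in WT cells.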

How the data were processed

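The authors sequenced poly(A) RNA of T47D cells. After trimming (Trimmomatic), mapping to GRCh38 (STAR) and Picard MarkDuplicates, they deposited raw counts per gene from featureCounts 2.0.0 (exons, reverse strand, primary alignments, Ensembl release 96). Whether duplicates were removed is not given in the sources used here. Sample groups are the genotype and treatment labels. Labels and methods differ on medium, kit and RNA input.

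Genes whose counts summed to more than 10 over the fitted libraries entered edgeR 4.0.16 in R 4.3.3 (TMM, robust quasi-likelihood F test, Benjamini-Hochberg adjustment over all genes). Fits used 9 libraries within a genotype and all 18 for genotype and interactions, with biological coefficients of variation of 7.05%, 7.42% and 7.24% (WT, PARP1 KO, all). Totals of 28890837 to 52251288 counts per library set the counting error. The adjusted P limit was 0.05, with a 1.5-fold change as a second criterion. Each standard error was derived from the F statistic (size of the log2 change over the root of F). CPM per kb uses the exon bases of the count files. On simulated counts with 200 genes changed by 1 on the log2 scale, 191 of 200 were recovered for niraparib in WT (21958 genes, 10 others called), 190 in PARP1 KO (21542 genes, 11 others) and 177 for the niraparib interaction (24112 genes, 8 others). The changed genes were taken only from those with higher mean counts, and the simulated libraries were drawn independently. The largest change of the 10 genes against DMSO was −0.88 (PGR, niraparib in WT), so these shares do not cover changes of their size. All 18 replicate pairs differed by more than sampling noise (chi-square per gene 3.13 to 19.0).

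The 10 genes, the other lists and the rules for naming genes were chosen with earlier results of these data known. Named from the other lists were up to 3 genes per list, comparison and direction past both criteria with the largest change and a mean of at least 1 CPM, the cell markers, and the 5 genes most like ESR1 and PGR; a few genes these rules name are not reported here. Others with a value in the text (such as FOXA1, XBP1, EP300 and HSD17B4) were chosen after their values were seen. Alternatives were RLE size factors, filterByExpr or no filter, DESeq2 1.42.0, a replicate block, 1 fit of 18 libraries, and each library left out. Sequences are from RefSeq tables and the GRCh38 genome.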

Additional observations from a re-analysis of the deposited data

Results flagged for a closer look

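For 8 genes the change with niraparib differed between genotypes by a direct test, the interaction term of the edgeR fit over 18 libraries. As the change in PARP1 KO minus the change in WT on the log2 scale, the values were 0.46 for ESR1 (adjusted P = 5.5e-06), 0.71 for PGR (1.7e-06), 0.28 for GREB1 (0.0048), 0.58 for CA12 (1.8e-07), 0.64 for PDZK1 (7.1e-08), 0.49 for IGFBP4 (3.2e-06), −0.31 for NRIP1 (0.0067) and −0.81 for RARA (2.3e-11). All 8 kept their sign and an adjusted P value below 0.05 in each of the 17 alternatives run.

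For olaparib the same test passed for ESR1, with a difference of 0.28 (adjusted P = 0.029), and for PGR, with 0.52 (adjusted P = 0.0025). ESR1 ranged from 0.24 to 0.34 over the alternatives and its adjusted P value reached 0.11 without PARP1 KO olaparib replicate 2. PGR ranged from 0.45 to 0.61 and its adjusted P value stayed at or below 0.014. Genotype and line cannot be told apart in either comparison.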

How the results depend on the processing

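Of 1170 values of single genes under the alternatives, 1127 kept their side of the adjusted P limit, 26 lost it and 17 gained it. No value that passed turned its sign, and 32 values that passed in neither fit did. With adjusted P below 0.05 alone as the criterion, the counts of genes past it were 10 (niraparib, WT), 3 (olaparib, WT), 8 (niraparib against olaparib, WT), 1 (olaparib, PARP1 KO), 2 (niraparib against olaparib, PARP1 KO), 8 (niraparib interaction) and 2 (olaparib interaction). Leaving out 1 library gave, with the 1.5-fold limit, 3 to 5 genes for niraparib in WT (3 without WT niraparib replicate 2), 0 to 1 for olaparib in WT (0 without WT olaparib replicate 1 or WT DMSO replicate 1), 1 to 4 between the drugs in WT (1 without WT niraparib replicate 2, 2 without WT olaparib replicate 2) and 0 to 1 for the olaparib interaction. On adjusted P alone it gave 0 to 1 for niraparib in PARP1 KO (1 without PARP1 KO niraparib replicate 2), 0 to 1 for olaparib in PARP1 KO, 1 to 2 between the drugs in PARP1 KO (1 without PARP1 KO olaparib replicate 1 or niraparib replicate 3) and 1 to 3 for the olaparib interaction. For niraparib in PARP1 KO, no filter on low counts and DESeq2 each gave 1 gene below 0.05 (TFF3). The cause of these moves was not tested.

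The replicate numbers do not pair the samples, since deviations of same-numbered libraries of a genotype correlated between −0.54 and 0.552, over 0.1 in 5 of 18 pairs. Libraries with different numbers shared deviations too, with correlations between −0.59 and 0.63 within a genotype, over 0.1 in 17 of 36 pairs. Across genotypes these ran from −0.58 to 0.657. WT DMSO replicate 1 and WT niraparib replicate 2 had r = 0.63. The fits do not model these shared deviations, and their source was not tested. With the replicate block, ESR1 with olaparib in PARP1 KO no longer passed (0 genes), 2 in place of 3 passed for olaparib in WT, and the niraparib count in WT stayed at 10. Depth limits TFF1 most, at 135 to 346 counts a library.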
